A study of Homo sapiens with 15 samples.

Results

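SETD2 is the methyltransferase that places trimethylation on lysine 36 of histone H3 (H3K36me3), a mark laid down along the bodies of transcribed genes. The subject here was a set of regions that were accessible in wild-type renal epithelial cells, were not called accessible after SETD2 was lost, and were not called again after SETD2 was put back. ATAC-seq, in which the Tn5 transposase cuts open chromatin and tags it for sequencing, had been run on RPTEC, a line of human epithelial cells from the renal proximal tubule immortalized with hTERT and kept under G418. The 15 libraries fell into 5 groups of 3: WT, the parental cells, KO1 and KO2, 2 single-cell clones with frameshift indels in SETD2 made by CRISPR, and Rescue1 and Rescue2, 2 single colonies of knockout cells that carried full-length FLAG-tagged SETD2 on a lentivirus under blasticidin. WT was a population and every other group was 1 clone, so the loss of SETD2 and the passage through a single cell cannot be told apart, and 3 libraries of 1 clone were not 3 independent clones. The rescue colonies came from knockout cells, and the labels do not say from which clone, so a region that stayed uncalled after SETD2 was put back and a state carried over from the parent clone cannot be told apart.

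Overlapping peaks of the 15 lists were joined wherever they had 1 bp or more in common, and 295008 of the merged regions held peaks from 2 or more libraries. Members were chosen by peak calls alone: a peak in all 3 WT libraries and in none of the 6 KO and 6 rescue libraries. This gave 3051 regions, called WT-only regions from here on. They made up 1.03% of all merged regions and 2.05% of the 148650 regions that all 3 WT libraries shared. These counts are fixed by the rule and describe the set, and without WT replicate 2 the rule gave 4676. A region without a call lay below the caller's threshold and was not shown to be closed, and in a bulk sample fewer open cells and less opening per cell cannot be told apart. The lists held between 196969 and 265193 peaks per library on chromosomes 1 to 22, X and Y, and the read depth behind them is not in the lists. Counted at any annotated start, peaks lay over promoters of 7 of 9 proximal tubule markers in all 3 WT libraries, and LRP2 and SLC22A6 had none there. CUBN is among the 7, but at its first start it had a peak in 0 of 3 WT libraries. All 5 epithelial markers had promoter peaks in 3 of 3 WT libraries. CDH1, which encodes E-cadherin, had one at some annotated start in 4 of 6 KO and 0 of 6 rescue libraries. At its first start CDH1 had a peak in 3 of 3 WT, 0 of 6 KO and 0 of 6 rescue libraries. In contrast, PTPRC (blood) and MYOD1 and RBFOX3 (muscle and neuron) had none. CDH5 of endothelium also had one in 3 of 3 WT libraries, and PECAM1 and CD3E in 1 and 2. The SETD2 promoter held a peak in all 15 libraries and the gene held no WT-only region. The edit was an indel in an exon away from the promoter, so a peak there checks nothing about the knockout.

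Distal accessible sites are mostly enhancers, where transcription factors displace nucleosomes and hold a short stretch of DNA open. AP-1 factors (FOS and JUN) and TEAD factors, the DNA-binding partners of YAP, are well-known openers of such sites in epithelial cells. CTCF, which anchors chromatin loops, and the promoter factors SP/KLF and ETS mark sites that are usually open in most cell types.

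The strongest WT-only regions are shown first, since they are the calls least close to the threshold. Strength was the percentile of a peak's fold enrichment within its own library, averaged over the 3 WT libraries. Given are 151 bases of the plus strand of hg38 around the mean WT summit of the 6 strongest members whose window held no annotated exon. Capitals mark letters of any of the 24 motifs searched on both strands.

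chr6:163924168-163924318: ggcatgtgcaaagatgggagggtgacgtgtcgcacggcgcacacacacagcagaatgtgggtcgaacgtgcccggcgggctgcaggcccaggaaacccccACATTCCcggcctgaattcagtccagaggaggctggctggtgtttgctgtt
chr13:19564945-19565095: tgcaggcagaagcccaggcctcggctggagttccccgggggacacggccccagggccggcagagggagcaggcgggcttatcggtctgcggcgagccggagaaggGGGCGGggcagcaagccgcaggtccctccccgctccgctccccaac
chr4:125523057-125523207: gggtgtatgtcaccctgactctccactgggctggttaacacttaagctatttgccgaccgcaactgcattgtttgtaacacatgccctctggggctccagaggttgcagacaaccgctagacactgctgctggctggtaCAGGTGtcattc
chr10:131635692-131635842: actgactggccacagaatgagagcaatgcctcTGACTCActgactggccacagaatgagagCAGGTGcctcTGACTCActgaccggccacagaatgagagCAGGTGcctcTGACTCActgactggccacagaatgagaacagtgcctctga
chr7:145915787-145915937: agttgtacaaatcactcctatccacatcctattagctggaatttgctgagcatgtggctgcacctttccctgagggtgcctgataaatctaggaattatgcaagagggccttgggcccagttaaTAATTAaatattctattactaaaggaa
chr21:31900641-31900791: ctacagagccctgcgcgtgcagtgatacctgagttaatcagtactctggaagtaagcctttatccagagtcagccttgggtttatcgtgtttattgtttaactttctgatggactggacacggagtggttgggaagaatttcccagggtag

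The first window held a TEAD motif, the second an SP/KLF box, the third a ZEB/SNAI E-box and the fifth a homeobox motif, while the window inside HUNK held none of the 24. The chromosome 10 window was a tandem repeat in which AP-1 and E-box letters recurred. Each of these 6 summits was nevertheless single in the genome, in that the 31 bases at its summit occurred once in hg38. Over all WT-only regions 94.9% had a single-copy summit, against 93.0% of the other regions with 3 WT peaks.

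The strongest member lay between genes on chromosome 6 (163924053 to 163924375), 510 kb from the start of QKI, which encodes an RNA-binding protein. Its percentiles in the WT libraries were 99.6, 99.4 and 99.4, so that almost every other peak of each library was weaker. The second (chromosome 13, 19564807 to 19565195) lay over an exon of the lncRNA gene LINC00350, 3.38 kb from the start of TPTE2, with percentiles of 97.2, 99.5 and 99.4. The third lay 24.0 kb from MRPL3 (mean percentile 96.4), and its sequence is not shown because its window held an annotated exon. The fourth lay 208 kb from FAT4, an atypical cadherin (96.3). The sixth lay 200 kb from CNTNAP2, a neurexin family gene (95.9). The seventh lay in an intron of HUNK, a kinase gene, on chromosome 21 (31900348 to 31900985), with percentiles of 96.3, 95 and 95.5. Of the other 4, ranks 5, 9 and 10 stood in dense runs described below, rank 9 over the start of JAM3, and rank 8 (chromosome 12, 131264664 to 131265090) stood between 2 such runs.

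Most WT-only regions were weak peaks. Their median percentile was 33.1 ± 2.66 over the 3 WT libraries (SD, n = 3), against 63.4 ± 1.47 for the other regions with 3 WT peaks and 45.1 ± 3.17 for the 927 regions lost in KO and called again in all 6 rescue libraries. Only 17 members had a mean percentile of 90 or more, and 587 had one of 50 or more. When the WT regions were ordered by strength and cut into 10 equal bins, WT-only regions made up 6.09% of the weakest bin and 0.0807% of the strongest. They were also narrower, with a median width of 178 bp against 389 bp. The WT libraries placed them slightly less closely: the 3 summits of a member lay within 50 bp of each other in 63.1% of cases, against 69.8% for the other WT regions.

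**Figure D1:**
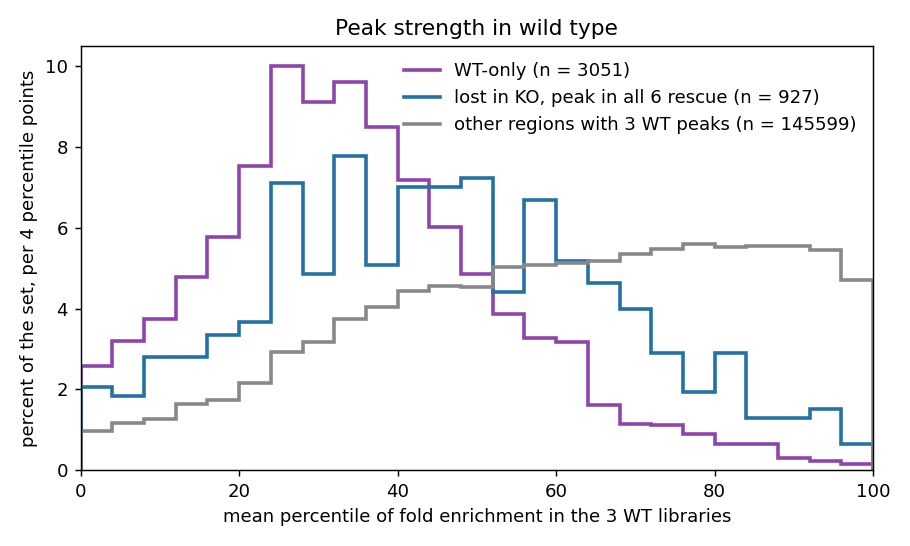
Distribution of peak strength in wild type (x axis, mean percentile of fold enrichment over the 3 WT libraries; y axis, percent of the set per 4 percentile points) for WT-only regions, regions lost in KO and called in all 6 rescue libraries, and all other regions with 3 WT peaks. WT-only regions pile up at low percentiles, with a median near 33, whereas the other WT regions are spread over the upper range.

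The calls just outside the rule were of similar strength. Of the regions with 3 WT peaks, 1843 had a peak in exactly 1 KO or rescue library and 1740 in 2, where the median over regions of the mean WT percentile was 34.6 and 34.4, against 33.2 for the members. A further 3813 regions had a peak in 2 of 3 WT libraries and in none of the other 12. By comparison 104967 regions held a peak in all 15 libraries, at a median percentile of 71.4. Of the 7308 regions lost in all 6 KO libraries, 927 were called in all 6 rescue libraries and 3330 in 1 to 5, and the 3051 members were called in none. From a member to the nearest peak of any KO or rescue library the median distance was 1950 bp. Such a peak lay within 500 bp of 610 members (20%), and none lay within 10 kb of 367 (12%).

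How well the rule carried over to a library that it had not used was measured by leaving each library out. WT-only regions defined without WT replicate 1 held a peak in it in 79.3% of 3846 cases, and the shares for WT replicates 2 and 3 were 66.2% and 67.6%. In KO libraries left out in the same way the share was 4.34% ± 1.75 (SD, n = 6, range 3.08% to 7.71%), and in rescue libraries 5.03% ± 4.55 (SD, n = 6, range 2.18% to 13.7%). Over all merged regions the same libraries held a peak in 58.5% to 63.1% (WT), 60.9% to 74.4% (KO) and 62.8% to 76.8% (rescue). The WT shares thus lay above those of any region and the KO and rescue shares below. Regions read in a left-out WT library already held a peak in both other WT libraries, whereas a merged region needed any 2 libraries. Each left-out KO or rescue library was read at regions where the other libraries of its own clone had been required to hold no peak. Leaving out a whole clone gave a mean share of 9.57% for KO1, 9.73% for KO2, 5.43% for Rescue1 and 17.8% for Rescue2. The 2 highest single shares came from the libraries with the longest lists of their groups, Rescue2 replicate 1 (265193 peaks) and KO2 replicate 3 (254650 peaks). Regions were also merged anew from the 150000 peaks of highest −log10 q in every library. The share for the left-out clone was then 12% for KO1, 6.96% for KO2, 7.77% for Rescue1 and 12.7% for Rescue2, so that KO2 stood below KO1.

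WT-only regions lay mostly away from promoters, as did other regions that some library lacked. Promoters, taken as 1000 bp before to 100 bp after a start of a protein-coding gene, were covered by 197 of them, or 6.46% (95% Wilson interval 5.64% to 7.38%), against 15% of the other regions with 3 WT peaks. The share was 6.28% in regions lost in KO and called in 1 to 5 rescue libraries, and by the number of KO and rescue libraries with a peak it was 6.24% with 1, 6.1% with 2 or 3, 6.9% with 4 to 6, 6.84% with 7 to 9 and 7.93% with 10 or 11. Regions called in all 12 stood at 18%, so the low share was not particular to the members. Introns held 54.6% of members against 47.6%, and intergenic sequence 32.1% against 28.5%. The median distance to the nearest protein-coding start was 59.1 kb, compared with 41.1 kb for the other WT regions and 38.1 kb for the regions called again in all rescue libraries. The lower promoter share was present at matched strength: in 5 bins of the members' own strength it ran from 4.43% to 9.34%, and in other WT regions of the same strength from 9.84% to 20.4%. Within protein-coding genes, outside promoters, 37.8% of members lay in the first of 3 equal parts of the gene, 34.6% in the middle part and 27.6% in the last, against 35.4%, 33.0% and 31.5% of the other WT regions. The intervals cover counting error only.

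AP-1 motifs were scarce in WT-only regions. Within 100 bp of the WT summit, TGANTCA was found in 361 members, or 11.8% (95% Wilson interval 10.7% to 13%), against 31.2% of the other WT regions. Weighting the other regions to the GC content of the members gave 34.3%. In every one of 5 bins of strength the members held fewer, from 9.18% to 14.3% against 20.3% to 33.4%. In the regions lost in KO but called again in all 6 rescue libraries the share was 36.6%, and in those called in 1 to 5 it was 19.5%. The CTCF motif was found in 1.05% of members against 3.35%. RUNX (TGTGGTT) was found in 6.46% against 8.39%, and the forkhead motif TGTTTAC in 2.10% against 2.96%.

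Other motifs were more frequent. TEAD (ACATTCC) was found in 9.21% of members (8.23% to 10.3%) against 5.51% of the other WT regions, or 5.99% after weighting to GC. A tandem ATTCC, the unit of a satellite repeat, stood in 0.229% of member windows and 0.264% of the others. A perfect tandem of this unit shares CATTCC with the TEAD letters but does not hold ACATTCC, so these shares do not bear on TEAD. The homeobox core TAATTA was found in 6.36% against 3.36%, STAT (TTCCNGGAA) in 1.64% against 0.952%, and the E-box bound by the epithelial repressors ZEB and SNAI, CAGGTG, in 22.5% against 16.8%. After weighting to GC the other WT regions stood at 4.27% for homeobox, 0.957% for STAT and 15.4% for the E-box. The E-box was more frequent still in the regions called again in all rescue libraries, at 35.9%. SP/KLF (GGGCGG) and ETS (CCGGAAG) were found in 7.18% and 1.28% of members against 13.3% and 2.69%, but in 5.82% and 1.26% against 7.04% and 1.39% once promoters were left out, so the gap was smaller outside promoters. A motif match is a string of letters and was not shown to be bound. All these shares compare sets picked by peak calls and are descriptions.

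**Figure D2:**
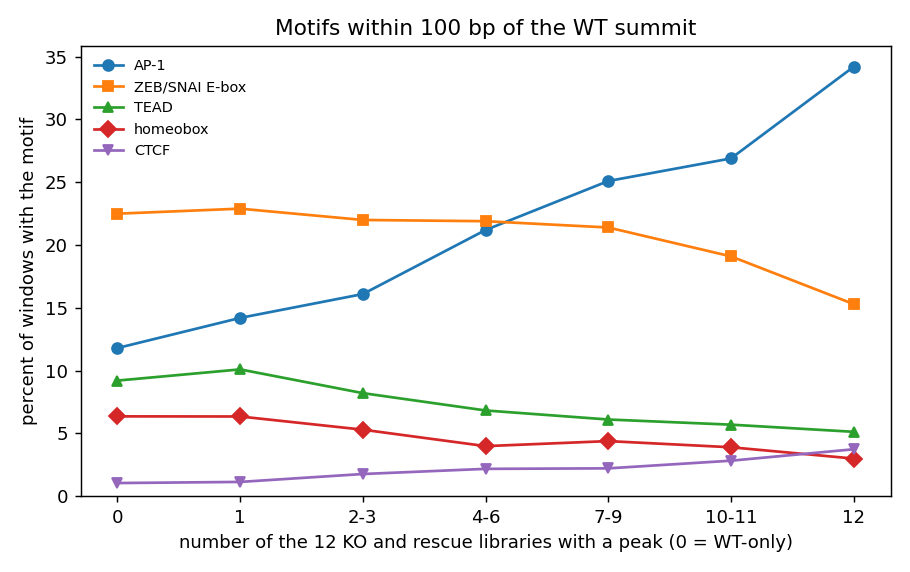
Share of regions with 3 WT peaks that hold each motif within 100 bp of the WT summit (y axis, percent), by the number of the 12 KO and rescue libraries with a peak (x axis; 0 marks the WT-only regions). AP-1 climbs from 11.8% at 0 libraries to 34.2% at 12, CTCF climbs from 1.05% to 3.74%, and TEAD goes from 9.21% at 0 and 10.1% at 1 to 5.13% at 12.

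The shares moved in steps with the number of other libraries that held the region. AP-1 stood at 11.8% with 0 libraries, 14.2% with 1, 16.1% with 2 or 3, 21.2% with 4 to 6 and 34.2% with all 12. TEAD went the other way, from 9.21% with 0 and 10.1% with 1 to 5.13% with all 12. Strength rises along the same axis, as given above.

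WT-only regions were clustered, and a small number of places held them in long unbroken runs. Another member lay within 50 kb of 771 of them (25.3%) and within 10 kb of 363 (11.9%). The next region with 3 WT peaks along the chromosome was again a member for 8.46% of members, against the 2.05% of such regions that are members. For the regions called again in all rescue libraries that share was 12.6%, against 0.624%. Most members stood alone: 2630 of 3051 (86.2%) had no member as the next WT region on either side. Among autosomes the share of WT regions that were members ran from 1.25% on chromosome 22 to 2.98% on chromosome 13.

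Runs of 5 or more consecutive members, with no other region with 3 WT peaks between them, numbered 11 and held 93 members (3.05%). In 9 of them no peak of any KO or rescue library was listed over the whole span, and the other 2 held 1 rescue peak each. The members have no such peak by the rule, so only the rest of each span could hold any. These 93 members differed from the scattered ones. Their median percentile was 57.1 against 32.9, their median GC content 53.7% against 46.3%, and AP-1 was found in 28% (26 of 93) against 11.3%. Runs were picked after the values were seen.

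The densest window lay on chromosome 12 over the 3′ part of ADGRD1, an adhesion G protein-coupled receptor gene, and the intergenic sequence beyond it. From 131000001 to 131500000 the WT libraries listed 45, 40 and 44 peaks, and 31 of 33 regions with 3 WT peaks were members. The 6 KO libraries listed 0 or 1 peak there and the 6 rescue libraries 0 to 2. The members there have no KO or rescue peak by the rule. In the next 500 kb, from 131500001, the WT libraries listed 38 to 49 peaks, the KO libraries 41 to 50 and the rescue libraries 44 to 59, and no region was a member. In the 500 kb before the window WT had 17 or 18 peaks, KO 6 to 10 and rescue 20 to 23. All 8 WT regions in or within 5 kb of ADGRD1 were members. No library of KO1, KO2, Rescue1 or Rescue2 held any of the 9 merged regions of the gene, whereas the WT libraries held 9, 9 and 8. Of these 9 regions, 8 are members and have no KO or rescue peak by the rule. The strongest member of the gene covered an exon (131104748 to 131104980), with percentiles of 91.0, 96.5 and 95.2.

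Chromosome 10 held 2 such places. In the first, upstream of PPP2R2D, which encodes a regulatory subunit of protein phosphatase 2A, 16 members followed each other over 167 kb (131592071 to 131758887). The WT libraries listed 18, 17 and 18 peaks in this span and no other library listed any. The tandem-repeat sequence printed above lies in it, with percentiles of 98.2, 94.2 and 96.2. The window of 500 kb that holds this run also holds PPP2R2D and BNIP3, a mitophagy gene, and over the whole window WT libraries listed 39 to 45 peaks, KO libraries 21 to 26 and rescue libraries 23 to 29. Both promoters were occupied in all 15 libraries. In the second, 8 members followed each other over 171 kb (121324902 to 121496025), from beyond the 3′ end of FGFR2 into the gene. FGFR2 is a fibroblast growth factor receptor whose splice forms differ between epithelial and mesenchymal cells. The gene and its flanks held 5 members among 13 WT regions. Of its 14 merged regions the WT libraries held 13 or 14, the KO libraries 5 to 8 and the rescue libraries 1 to 4, but 5 of the 14 are members and have no KO or rescue peak by the rule. Over all merged regions the mean share with a peak was 60.2% in WT, 65.8% in KO and 67.2% in rescue libraries. The FGFR2 promoter itself kept a peak in all 15 libraries.

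On chromosome 7, DPP6, which encodes an accessory subunit of neuronal potassium channels, held more members than any other gene, 16 of its 30 WT regions. A run of 10 members lay inside it over 550 kb (154179028 to 154729338), where WT libraries listed 14 or 15 peaks, KO libraries none and rescue libraries 1 in all, and a run of 5 followed. The first start of DPP6 had a peak in 3 WT libraries and in no other, while some start had one in 2 of 6 KO and 6 of 6 rescue libraries. PAXIP1, the other gene of that dense window, kept its promoter peak in all 15. RBFOX1 on chromosome 16, an RNA splicing factor gene, held 14 of 19, with runs of 6 and 5. The clones differed over the gene: of its 49 merged regions WT libraries held 20 to 26, KO2 17 to 23 and Rescue2 15 to 21. Each KO1 library held 9 and Rescue1 libraries 4 to 6. Of these 49 regions, 14 are members and have no KO or rescue peak by the rule. The clone numbers do not give the parent of a rescue clone. JAM3 on chromosome 11, a junctional adhesion molecule of tight junctions, held 3 and lay in a run of 6 (134045833 to 134118320) in which all 3 WT libraries listed 6 peaks and no other library any. The last run, of 5 members, lay near OTOR on chromosome 20.

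One sequence is added for each of 4 runs, the strongest member without an exon and not already shown, a choice made after the data were seen. Among the windows above, that of chromosome 10 also lies in a run. They come from the ADGRD1 run, the run beyond it, DPP6 and the FGFR2 run, in this order.

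chr12:131234934-131235084: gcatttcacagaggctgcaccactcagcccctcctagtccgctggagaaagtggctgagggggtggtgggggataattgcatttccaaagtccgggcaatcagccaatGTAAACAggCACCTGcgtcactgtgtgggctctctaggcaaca
chr12:131454811-131454961: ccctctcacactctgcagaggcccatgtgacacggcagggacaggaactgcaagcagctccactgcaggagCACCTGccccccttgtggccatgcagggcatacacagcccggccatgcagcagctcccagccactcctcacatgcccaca
chr7:154676475-154676625: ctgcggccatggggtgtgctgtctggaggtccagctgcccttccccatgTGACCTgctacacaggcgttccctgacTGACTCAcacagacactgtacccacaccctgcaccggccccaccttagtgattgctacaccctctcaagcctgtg
chr10:121406934-121407084: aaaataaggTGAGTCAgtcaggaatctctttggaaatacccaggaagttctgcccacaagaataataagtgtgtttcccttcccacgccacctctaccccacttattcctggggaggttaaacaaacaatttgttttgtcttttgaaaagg

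The DPP6 and FGFR2 windows each held an AP-1 motif. Both chromosome 12 windows held the ZEB/SNAI E-box on the minus strand, and the first also held a forkhead motif.

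**Figure D3:**
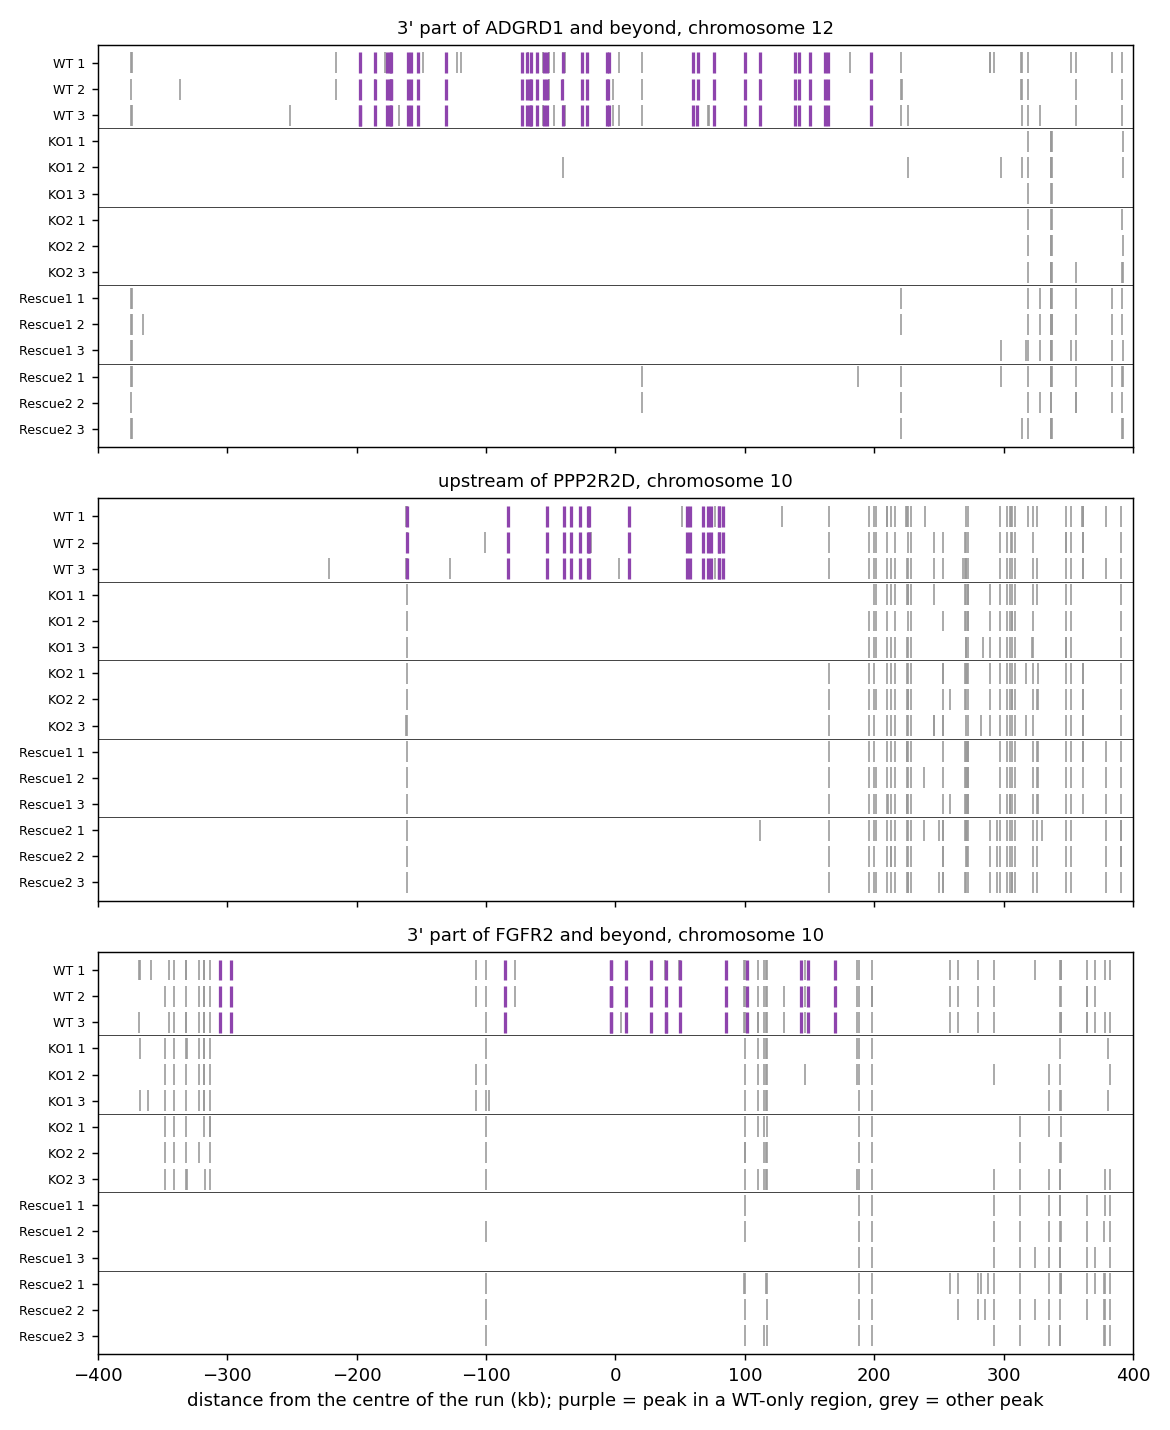
Peaks of each of the 15 libraries (rows) around 3 places with long runs of WT-only regions, as distance from the centre of the run in kb (x axis). Purple ticks are peaks in WT-only regions, which by the rule stand in WT rows only, and grey ticks all other peaks. The purple ticks fill the middle of the 3 WT rows, where the KO and rescue rows are nearly empty, and peaks of all groups return at the right of each panel.

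Among the 10 genes with the most members, a gene whose merged regions held no KO or rescue peak was the exception. ADGRD1 had none, but 8 of its 9 regions are members, which have no such peak by the rule. SMOC2, which encodes a secreted matrix protein, held 12 or 13 of 14 regions in WT, 2 to 5 in KO and 0 in every rescue library. Of these 14 regions, 6 are members. In PCSK5, which encodes a proprotein convertase, 11 of 39 WT regions were members. In the long genes MACROD2, ALDH1A2 (retinoic acid synthesis) and GPC6 (a glypican), members were few among many, with 7 of 86, 5 of 60 and 5 of 67 WT regions. PHYHD1 held 4 of 5, all within 5 kb of its neighbour LRRC8A as well, which therefore counts the same 4. HUNK, named above for the seventh strongest member, held 4 of 5, at mean percentiles of 29.4, 90.2, 95.6 and 90.7.

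**Figure D4:**
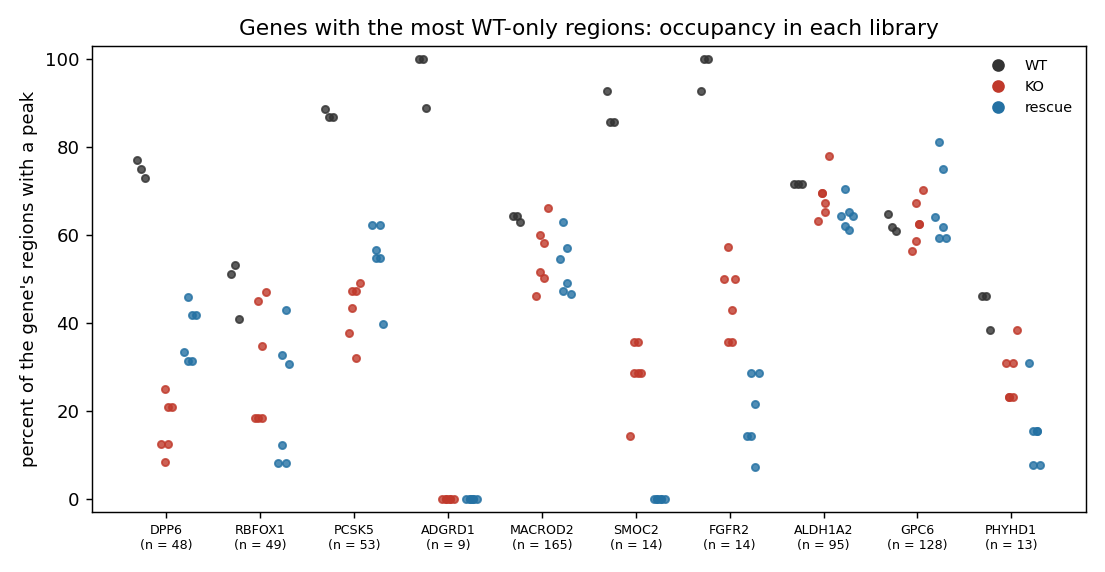
Percent of the merged regions in or within 5 kb of a gene that hold a peak (y axis) in each library, for the 10 protein-coding genes with the most WT-only regions (x axis, with the number of merged regions). Each point is 1 library. In ADGRD1 all 12 KO and rescue libraries sit at 0, in SMOC2 all 6 rescue libraries sit at 0, and in GPC6 all 3 kinds of library overlap. WT-only regions are counted here and hold no KO or rescue peak by the rule (8 of 9 in ADGRD1, 6 of 14 in SMOC2).

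Promoters among the WT-only regions belonged to 192 protein-coding genes. At 42 of these (21.9%) no KO or rescue library listed a peak at any annotated start, whereas 115 (59.9%) kept a peak at another start or another part of the promoter in all 12. The members have no such peak by the rule, so only other starts or other parts of these promoters could hold one. Over all protein-coding promoters, taken at the first start, the mean share with a peak was 65% in WT, 64.6% in KO and 64.8% in rescue libraries. The strongest promoter member covered the start of JAM3 (134068867 to 134069329, percentiles 93.6, 95.4 and 95), and no KO library had a peak at any JAM3 start, while 3 of 6 rescue libraries had one at another start. The next were those of ZNF135, a zinc finger gene (mean percentile 89.6), GBF1, a Golgi exchange factor (86.7), and NR2E1, an orphan nuclear receptor (83.3). KLK6, a serine protease (80.6), and PM20D1, a secreted peptidase (80), followed. For ZNF135, NR2E1, KLK6 and PM20D1 no KO or rescue library had a peak at any start, while GBF1 had a peak at its first start in all 15. The seventh (chromosome 9, 21974730 to 21975358, mean percentile 76.8) covered a start of CDKN2A, the gene of the cell-cycle inhibitor p16, which at any of its starts held a peak in 3 of 6 KO and 6 of 6 rescue libraries. These genes were named in order of strength after the values were seen.

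Genes of epithelial and kidney function were then counted by lists. Of all 18926 protein-coding genes with a merged region in the gene or within 5 kb, 1580 (8.35%) held a WT-only region, and members made up 1.83% of the WT regions in genes. Among genes of epithelial junctions and keratins 12 of 45 held a member, and members were 15 of 383 WT regions (3.92%). KRT7, a keratin of simple epithelia, held 2 over its promoters (mean percentiles 28.7 and 56.9). At some annotated start KRT7 had a peak in 3 of 3 WT, 6 of 6 KO and 6 of 6 rescue libraries. At its first start it had one in 3 of 3 WT, 0 of 6 KO and 0 of 6 rescue libraries. CDH1 held 1 in an intron (chromosome 16, 68778530 to 68778857) with percentiles of 52.1, 67.3 and 49.5, 1 of 13 WT regions. MUC1, an epithelial mucin, held 1 (72.0) and PARD3, a polarity gene, 3 of 78.

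Of the 42 genes of proximal tubule transport and metabolism, 9 held a member, and members were 11 of 262 WT regions (4.2%). SLC17A3, a urate and phosphate transporter gene, and MIOX, the inositol oxygenase of the proximal tubule, held 2 each, both of the latter at the bottom of the lists (mean percentiles 2.80 and 4). UGT1A6, a glucuronosyltransferase whose locus is shared by overlapping genes of its family, held 1 at a promoter (74.7), and CUBN, the endocytic receptor cubilin, held 1 of 40. At some annotated start UGT1A6 had a peak in 3 of 3 WT, 3 of 6 KO and 4 of 6 rescue libraries. Kidney identity factors had 7 of 36 genes and 9 of 271 regions (3.32%), with 2 near each of IRX1 and IRX2 and 1 near HNF4A and SIX2. Those near IRX1 (mean percentiles 14.1 and 14.2) and IRX2 (1.2 and 4.05) were weak, and those near HNF4A and SIX2 stood at 33.6 and 28.5. Integrins and laminins had 8 of 32 genes and 12 of 354 regions (3.39%), among them ITGA1, ITGB4, ITGA6 and LAMB3 with 2 each. The stronger member stood at 44.1, 39.9 and 31.3 for the integrins, and both of LAMB3 at the bottom of the lists (1.95 and 0.576).

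By share of WT regions, the signalling and mesenchymal lists lay between 1.63% and 2.70%, beside 1.83% for all genes. WNT genes had 12 of 58 and 13 of 486 regions (2.67%), with 2 in WNT10A at the bottom of the lists (mean percentiles 1.85 and 0.928). TGF-beta and BMP genes had 8 of 46 and 10 of 431 regions (2.32%), with 2 each in BMP5 and BMPR1B. Cytokines and chemokines had 5 of 45 and 6 of 222 (2.70%), with 2 near CXCL14. Collagens had 8 of 32 and 8 of 393 (2.04%), axon guidance genes 10 of 52 and 13 of 653 (1.99%), and EMT factors and mesenchymal genes 4 of 36 and 5 of 307 (1.63%), of which TNC, tenascin C, held 2. Interferon response genes had 1 of 45, near IFIT3 (0.469% of 213 regions), and HOX genes 1 of 38, near HOXB3 (0.463% of 216). Writers, readers and erasers of H3K36 methylation held 0 of 239 regions, which allows a share of up to 1.26% at 3 counts. Longer genes have more regions and so hold a member more easily, which the shares of regions take into account. No list was tested against the others.

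Whether the surroundings of WT-only regions differed between groups was tested on regions near members that were not members themselves. There were 20050 merged regions within 25 kb of a member, members left out. Of these 67.9% ± 3.07 held a peak in WT libraries (SD, n = 3; 71.4%, 66.0% and 66.2%), 66.1% ± 4.5 in KO (SD, n = 6; 61.5% to 74.5%) and 70.0% ± 5.37 in rescue libraries (SD, n = 6; 65.6% to 79.0%). The groups overlapped, and neither KO against WT (-1.77 points, two-sided exact permutation p = 0.571, adjusted p = 0.619) nor rescue against WT (2.07 points, exact permutation p = 0.619, adjusted p = 0.619) nor rescue against KO (3.84 points, exact permutation p = 0.210, adjusted p = 0.571) passed the test. Without WT replicate 1 the KO difference was 1.38 points, of the opposite sign. The clones differed in direction: against WT, KO1 alone was at -4.7 points and KO2 alone at 1.17, and Rescue1 alone at -0.811 and Rescue2 alone at 4.95, where 3 libraries against 3 cannot give an exact permutation p below 0.1. Leaving out also the regions with no WT peak and a peak in all 12 other libraries, the mirror of the members, gave -3.16 points for KO and 0.729 for rescue against WT (adjusted exact permutation p = 0.429 and 0.929). Adjustment was over 6 tests, on neighbours and on the promoters described below. Alternatives that changed only the neighbours or only the promoters, such as leaving out the mirror regions, were adjusted over their own tests only. The smallest exact p these groups allow is 0.0238 against WT and 0.00216 between KO and rescue.

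List length differed between libraries and moved with these values. Regions and members were set anew from the 150000 peaks of highest −log10 q in each library, which gave 3708 members and another set of neighbours. The share was then 73.8% ± 0.896 in WT (SD, n = 3), 69.1% ± 0.884 in the KO libraries and 71.4% ± 1.01 in those of the rescue clones (SD, n = 6 each). List length and the choice of regions thus changed together. The WT libraries then lay above all 12 others, at 73.2% to 74.8% against 68.1% to 70.2% in KO and 70.0% to 72.6% in rescue. All 3 differences passed (KO against WT, -4.68 points, rescue against WT, -2.45 points, rescue against KO, 2.23 points; adjusted exact permutation p = 0.026 each). The tests permuted libraries, while KO and rescue were 2 clones each, so these p-values do not measure the spread between clones. By clone, the libraries stood at 68.1% to 68.7% (KO1), 69.4% to 70.2% (KO2), 70.0% to 72.0% (Rescue1) and 71.4% to 72.6% (Rescue2). Subtracting from each library its share over all merged regions gave 7.73 ± 0.550 points in WT (SD, n = 3), against 0.349 ± 0.354 for the KO libraries and 2.74 ± 0.287 for those of the rescue clones (SD, n = 6 each), again without overlap (WT 7.31 to 8.36, KO -0.12 to 0.693, rescue 2.18 to 3.01; adjusted exact permutation p = 0.0238 for both against WT and 0.00649 for rescue against KO). The neighbours were picked by their distance from sites that by the rule hold WT peaks and no KO or rescue peak. The rule can thus raise the WT share beside them, and these p-values cannot separate that from a difference in the surroundings. Rescue against KO shares its libraries with the rule, and the rescue colonies descend from knockout cells, so these groups are not independent.

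**Figure D5:**
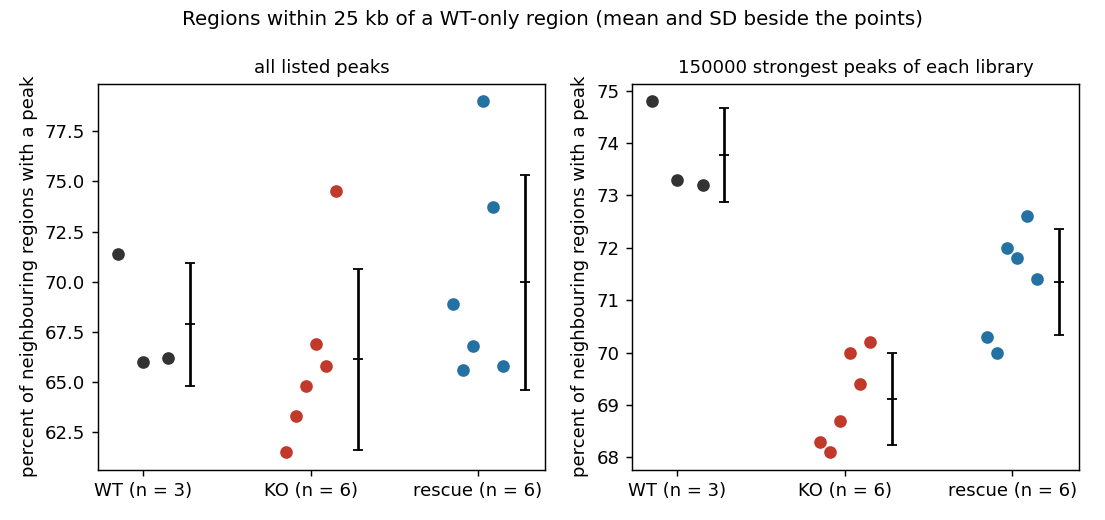
Percent of merged regions within 25 kb of a WT-only region, members left out, that hold a peak (y axis) in each library, with all listed peaks (left) and with the 150000 strongest peaks of each library (right). On the right, regions and members were set anew from the shorter lists, so the neighbours are another set. Points are libraries and bars the mean and SD. On the left the groups overlap, and on the right WT spans 73.2% to 74.8%, KO 68.1% to 70.2% and rescue 70.0% to 72.6%.

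The promoters nearest to WT-only regions differed by 1 point or less between groups. Of 2180 protein-coding promoters nearest to a member and not covered by one, 69.7% ± 0.503 held a peak in WT (SD, n = 3), against 68.7% ± 0.716 in the KO libraries and 69.0% ± 0.809 in those of the rescue clones (SD, n = 6 each). Over all protein-coding promoters the means were 65% in WT, 64.6% in KO and 64.8% in rescue libraries. KO against WT was -1 points (exact permutation p = 0.0952, adjusted p = 0.571), rescue against WT -0.642 (exact permutation p = 0.286, adjusted p = 0.571) and rescue against KO 0.359 (exact permutation p = 0.444, adjusted p = 0.619). After subtraction of each library's share over all promoters the differences from WT were -0.58 for KO and -0.425 for rescue, which did not pass (adjusted exact permutation p = 0.0714 for both). Among promoters within 50 kb of a member the KO difference was -1.88 points and the rescue difference from KO 1.15 points (adjusted exact permutation p = 0.0487 for both). With 150000 peaks per library, and members set anew, the values were -0.798 for KO against WT, -1.19 for rescue against WT and -0.393 for rescue against KO. The last had the opposite sign to that from all peaks (adjusted exact permutation p = 0.026 for each). These promoters were also picked by nearness to members, and the tests permuted libraries and not clones.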

How the data were processed

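Peak lists of 15 ATAC-seq libraries (hg38) were used as deposited. Per the labels and the methods, the authors aligned reads with BWA (version 0.7.17 in the submitters' processing notes, a different one in the methods) and called peaks with MACS2 2.2.7.1, library by library. Each deposited list gives the interval, a score, the fold enrichment at the summit as a ratio to local background, the −log10 p and −log10 q, and the summit offset. DiffBind 2.14.0 is named in the notes, and its read counts were not used here. Depth is not in the lists, so precision rests on the number of libraries and on the threshold.

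Fold enrichment was ranked within each library only. Genes, exons and starts came from GENCODE release 44 and bases from hg38. WT-only regions, the gene lists and the motifs were chosen with earlier results of these data known. Genes were named by rule: the 10 strongest members, the 10 protein-coding genes with the most members, up to 4 genes per list, the protein-coding genes of the 3 densest windows of 500 kb, and SETD2. Sequences of the 6 strongest members outside chromosome 8 were to be shown, and members with an annotated exon in the printed window (ranks 3 and 10) were passed over, and 1 sequence from each of 4 runs was added, after the data were seen. Group means over libraries were compared by exact permutation tests, two-sided by doubling the smaller tail, with Benjamini-Hochberg adjustment over 6 tests. Alternatives that covered only part of these 6 tests were adjusted over that part. The labels do not say whether libraries were separate cultures, so p-values measure the spread between these libraries, which may be technical. Same-numbered libraries of different groups did not deviate together (correlations -0.0137 to 0.0223 over 30 pairs). Steps were tested on simulated data, with Python 3.11.15, numpy 2.4.6, pandas 2.3.3 and scipy 1.17.1. Alternatives were other peak thresholds, list sizes, region definitions, distances and leaving out each library.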

Additional observations from a re-analysis of the deposited data

Results flagged for a closer look

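In KO2 replicate 3 the list held 254650 peaks, set apart from the other 5 KO libraries, whose highest was 220784. Regions that were WT-only without this library held a peak in it in 7.71% of cases, where the next KO library reached 4.51%. Rescue2 replicate 1 stood apart in the same measure, with 13.7% against 6.47% for the next rescue library. Flags rest on the gap to the nearest library over the whole range in groups of 6, looked for in 8 groups, and chance flags about 1 in 20 groups.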

How the results depend on the processing

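Leaving out 1 library in turn gave 3120 to 4676 members (4676 without WT replicate 2), promoter shares of 6.18% to 6.59%, intron shares of 54.2% to 55.2%, intergenic shares of 31.7% to 32.8%, median WT percentiles of 28.3 to 34.6 and 25.2% to 31.5% of members with another within 50 kb. Held-out shares ranged from 8.75% to 11.9% (KO1), 7.99% to 11.6% (KO2), 5.06% to 8.06% (Rescue1) and 14.1% to 21.3% (Rescue2). Neighbour differences ranged from -3.12 to 1.38 points (KO against WT, 1.38 without WT replicate 1), 0.707 to 5.49 (rescue against WT) and 2.28 to 5.52 (rescue against KO), and promoter differences from -1.30 to -0.629, -0.880 to -0.181 and 0.0311 to 0.660. None passed the test.

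The majority rule gave 14281 members, and WT peaks with a −log10 q of 5 or more gave 1312, with a promoter share of 7.62%, median percentile 48.7, 18.1% within 50 kb and 11.1% held out in KO1. With no KO or rescue peak within 500 bp these were 5.53%, 36.8 and 23.3%. With 150000 peaks per library there were 3708 members, the median percentile was 51.4 and the held-out shares 12% (KO1), 6.96% (KO2), 7.77% (Rescue1) and 12.7% (Rescue2). Members within 10 kb and 100 kb were 11.9% and 35.6%. Promoters from 2000 bp before to 500 bp after gave 9.80%, and starts of all annotated genes 9.05%.

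For neighbours, 100 kb gave 0.813 points for KO against WT, subtraction of all regions gave -7.39, -5.00 and 2.39, 150000 peaks gave -4.68, -2.45 and 2.23, KO1 and KO2 alone gave -4.7 and 1.17, and Rescue1 and Rescue2 alone -0.811 and 4.95. Leaving out the mirror regions gave -3.16 and 0.729 against WT. For promoters, 150000 peaks gave -0.798, -1.19 and -0.393, and members within 50 kb gave -1.88 and 1.15 for the comparisons with KO, while subtraction of all promoters gave -0.58 and -0.425 against WT. The shares against WT and between KO and rescue thus depend on these settings. With 150000 peaks the members and their neighbours changed along with list length. C/EBP motifs turned from above to below the other WT regions after weighting to GC (-0.0373, log2) and outside promoters (-0.0526). Other motif ratios kept their direction among the 18 motifs with at least 30 members.

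With the replicate number as a replicate block, the neighbour difference stayed at -1.77 points for KO against WT (adjusted exact permutation p = 0.622, smallest exact p 0.0741). The numbers do not pair the libraries, and the block changed no call.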
